A study of Lathyrus oleraceus with 6 samples.

Results

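A group of 46 loci was taken from the 44756 loci of a pea root RNA-seq table, namely those that were abundant in control roots and at no more than 50% of that level after treatment with CO8-DA. The agent is a preparation of deacetylated chitooligosaccharides, chains of glucosamine mostly about 8 units long, given as an elicitor. The loci were chosen by CPM (the estimated count relative to the library total, scaled to a common total) with 3 thresholds. The mean over the control libraries had to be at least 20 CPM, the mean over the CO8-DA libraries had to be at most 0.5 times that mean, and every CO8-DA library had to lie below every control library. Among the 8772 loci with at least 20 CPM in the control, 56 met all 3 thresholds, which is 0.638%. From these, 10 named loci were set aside, 3 aquaporins, 1 sulfate transporter, 1 WRKY factor and 5 peroxidases, with CO8-DA means between 6.86% and 47.0% of the control. In the other direction, 66 of the abundant loci reached at least 2 times their control mean without overlap between the groups.

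The libraries came from roots of wild-type pea seedlings (Pisum sativum L., cultivar Frisson) that were 4 to 5 days old when treated. The CO8-DA group has 3 libraries, from seedlings incubated for 24 h with 1e-05 M CO8-DA in 0.5x Jensen's medium, and the control group has 3 libraries, from seedlings incubated for as long in that medium alone. Each library was made from the pooled roots of several plants, so differences between plants are averaged within it. The library totals lay between 12315774 and 19534336 estimated counts. Nothing in the count table pairs a locus with a gene name, so the tissue could not be checked against root markers. Descriptions are best database matches from the study's supplementary list of changed genes, which covers 44 of the 46 members. In bulk RNA a lower level cannot be divided into fewer cells of a type and less RNA per cell.

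Chitooligosaccharides are perceived by plant cells as fragments of fungal cell walls through receptors of the LysM type. Their perception starts defence signalling, in which legume roots make antimicrobial isoflavonoids and pathogenesis-related proteins. Roots at the same time take up nitrate, phosphate and metals and assimilate nitrogen, in legumes largely into asparagine, the amide that carries nitrogen to the shoot. The 46 loci include genes described as acting in uptake, nitrogen assimilation, flavonoid synthesis and disease resistance responses, but no LysM receptor, and they are described below by role. Since their fold changes chose them, the values are a description without a test.

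Together the members made up a small share of the RNA. Their CPM summed to 2176, 1981 and 1881 in CO8-DA replicates 1, 2 and 3, against 5162, 5263 and 5577 in control replicates 1, 2 and 3. The sums averaged 2013 ± 150 CPM after CO8-DA and 5334 ± 216 CPM in the control (SD, n = 3 each), so that the treated roots held 37.7% of the control sum. In single members the CO8-DA mean lay between 4.50% and 49.9% of the control mean, with a median of 41.3%. The distribution was uneven, with 24 members over 40% of the control and 11 at 25% or less. In 13 members the lowest control library was at least 2 times the highest CO8-DA library, and in 4 members it was less than 1.2 times that library. The edgeR log2 fold changes of the members lay between -4.54 and -1.03.

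**Figure D1:**
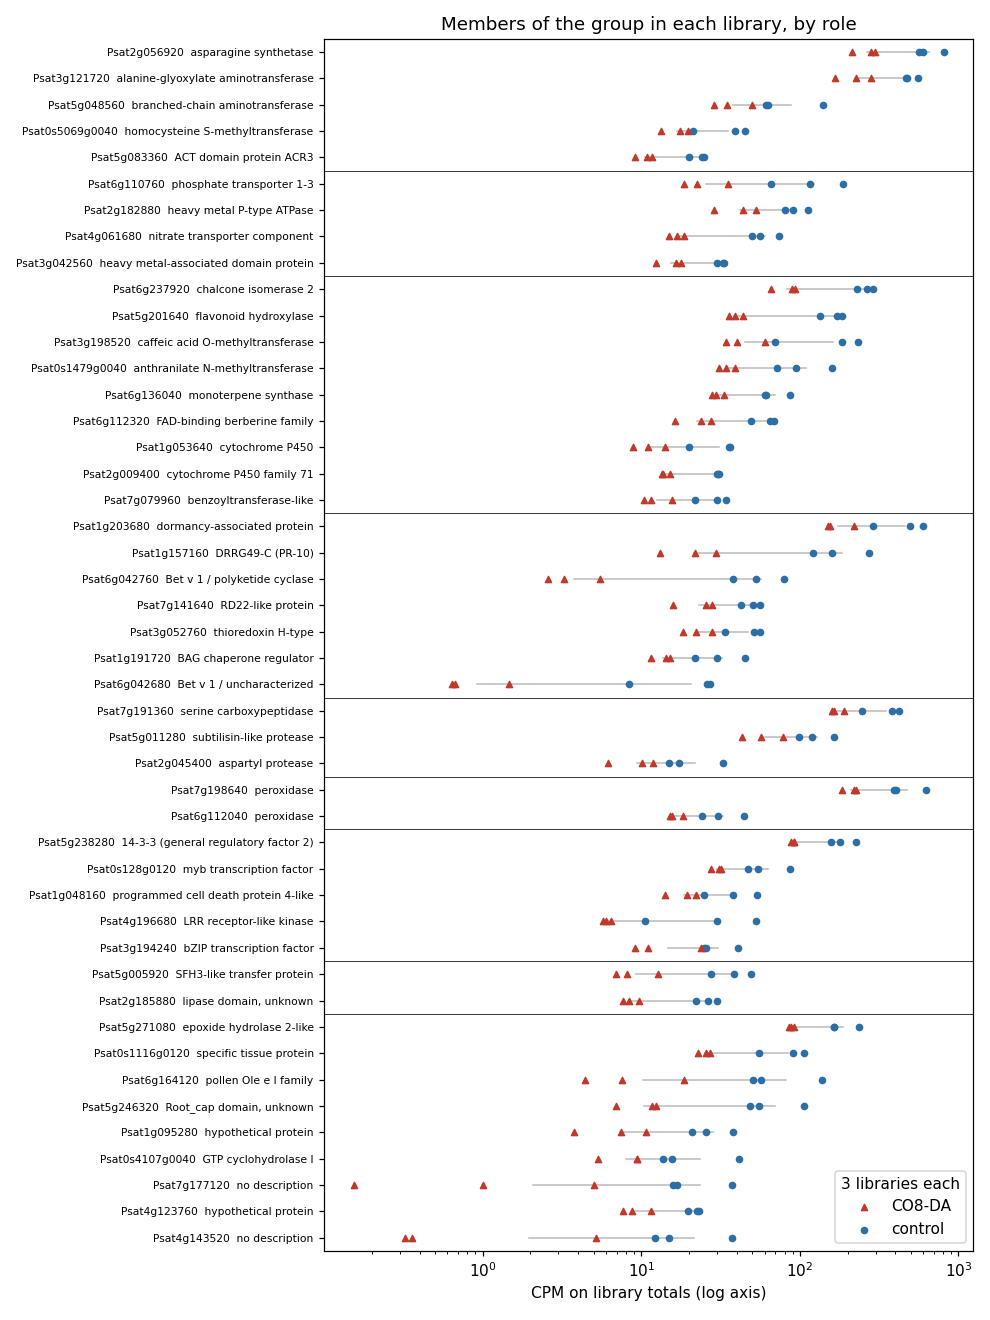
CPM of each of the 46 members in the 3 CO8-DA libraries (triangles) and the 3 control libraries (circles), on a log axis, in blocks by role with a grey line between the group means. No triangle lies to the right of a circle in the same line, because the loci were chosen so, and the widest distances are at the loci of the PR-10-like and undescribed kinds, where the CO8-DA mean was 4.50% of the control at the lowest.

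With edgeR's quasi-likelihood test on all 21293 tested loci, at a Benjamini-Hochberg adjusted p under 0.05 and a log2 fold change of -1 or lower, 105 loci were called, which is 0.493% of those tested. All 46 members were tested and 38 of them were called. DESeq2 called 44 members and 0.829% of its tested loci under the same thresholds. Complete separation of the groups with CO8-DA lower occurred in 10.9% of the tested loci. As the same contrast chose the members, nothing is read from these counts. The edgeR count fell to 20 without CO8-DA replicate 2, to 20 without CO8-DA replicate 3 and to 23 without control replicate 3, and 15 members were called in all 6 fits that each leave out 1 library. The shares of all tested loci called in these fits are not given, so nothing is read from these counts either.

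The values next to each threshold were close together. By the ratio, Psat3g042560 at 48.5%, Psat7g191360 at 49.0% and Psat6g112040 at 49.9% of the control lay just inside, while Psat4g204600 at 50.8%, Psat2g052520 at 51.2% and Psat0s1330g0080 at 51.2% lay just outside. By the control level, Psat2g045400 with 21.7 CPM, Psat4g143520 with 21.5 CPM and Psat6g042680 with 20.6 CPM were kept, whereas Psat3g064760 with 19.2 CPM, Psat4g061720 with 17.2 CPM and Psat7g118440 with 16.9 CPM were not. A further 14 abundant loci were at 50% or less of the control but had overlapping groups. Among these was Psat3g011320, described as Drm3, with 189, 250 and 164 CPM in CO8-DA replicates 1, 2 and 3, against 439, 211 and 582 CPM in control replicates 1, 2 and 3. Its control replicate 2 lay below CO8-DA replicate 2, and so it was not chosen. In the following, the values of the 3 libraries of a group are always in the order of replicates 1, 2 and 3.

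Genes of nitrogen and amino acid metabolism took up the largest part of the members' counts. The 5 loci summed to 553 ± 79.7 CPM after CO8-DA and 1298 ± 232 CPM in the control, which is 42.6% of the control. Asparagine synthetase (Psat2g056920), which makes asparagine from aspartate and glutamine, had 298, 213 and 280 CPM after CO8-DA, against 564, 594 and 810 CPM in the control. Its control replicate 3 was the highest library, and the mean after CO8-DA was 40.2% of the control. An alanine-glyoxylate aminotransferase-like locus (Psat3g121720), of a family known for the transamination of glyoxylate to glycine in photorespiration, had 280, 225 and 167 CPM after CO8-DA, against 472, 466 and 552 CPM in the control. The mean was 45.1% of the control, with control replicate 2 the lowest control library by a small margin and CO8-DA replicate 1 the highest treated one. Branched-chain amino acid aminotransferase (Psat5g048560), which acts in the synthesis and breakdown of leucine, isoleucine and valine, averaged 37.6 ± 10.9 CPM after CO8-DA and 87.8 ± 45.1 CPM in the control. That control SD came mainly from replicate 3, which had 140 CPM and without which the edgeR log2 fold change was -0.72 in place of -1.26. A homocysteine S-methyltransferase (Psat0s5069g0040), an enzyme that forms methionine, averaged 16.9 ± 3.23 CPM after CO8-DA and 35.2 ± 12.4 CPM in the control, and its lowest control library was only 1.08 times its highest CO8-DA library. The ACT domain-containing protein ACR3 (Psat5g083360), of a family with amino acid-binding domains, averaged 10.6 ± 1.3 CPM after CO8-DA and 23.0 ± 2.76 CPM in the control.

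The loci for mineral transport were 4 in number and summed to 99.5 ± 16.8 CPM after CO8-DA and 309 ± 84.0 CPM in the control (SD, n = 3 each), 32.2% of the control. The probable inorganic phosphate transporter 1-3 (Psat6g110760), of the family that takes up phosphate at the root surface, had 22.4, 18.6 and 35.3 CPM after CO8-DA, against 116, 66.1 and 186 CPM in the control. Its CO8-DA mean was 20.7% of the control, and in both groups replicate 3 was the highest and replicate 2 the lowest. The component of the high-affinity nitrate transporter (Psat4g061680), whose relative in Arabidopsis is a partner protein that the nitrate carriers of the NRT2 family need for uptake, averaged 16.8 ± 1.91 CPM after CO8-DA and 60.0 ± 12.4 CPM in the control, 27.9% of the control. A heavy metal P-type ATPase (Psat2g182880), of a family that pumps metal ions across membranes, had 43.6, 28.9 and 52.8 CPM after CO8-DA, against 81.1, 90.5 and 113 CPM in the control. Here too replicate 3 was the highest library of each group, and the mean was 44.1% of the control. A heavy metal-associated domain protein (Psat3g042560) averaged 15.5 ± 2.81 CPM after CO8-DA and 31.9 ± 1.73 CPM in the control. Of the 9 loci for nitrogen metabolism and mineral transport, 7 had their highest control level in replicate 3.

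**Figure D2:**
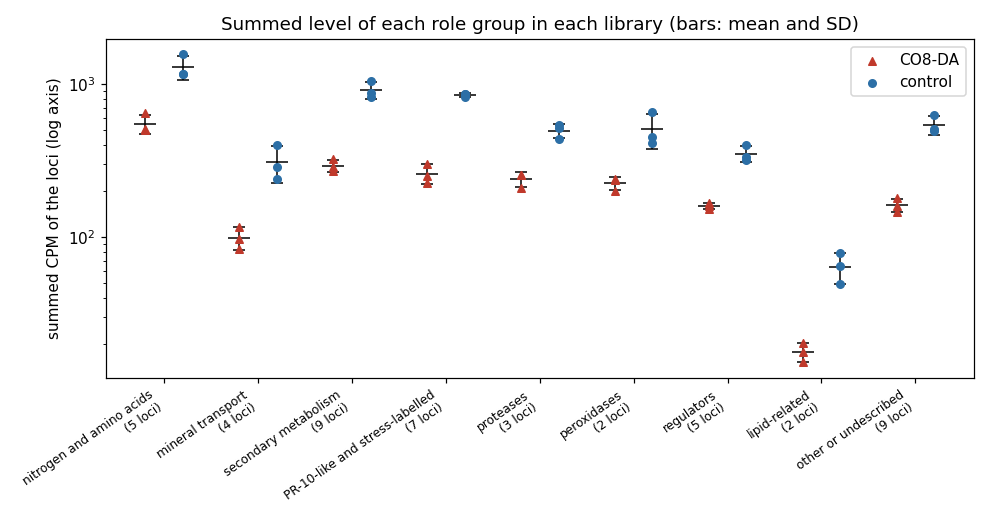
Summed CPM of the members of each role in each library on a log axis, with CO8-DA as triangles on the left and control as circles on the right of each role, and with bars for the mean and SD of 3 libraries. The gap is smallest for the proteases, at 48.1% of the control, and widest for the lipid-related loci, at 27.7%.

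Secondary metabolism was the role with most members. These 9 loci summed to 293 ± 27.3 CPM after CO8-DA and 916 ± 113 CPM in the control, 32.0% of the control. Chalcone isomerase 2 (Psat6g237920), an enzyme that closes the ring of chalcones to give flavanones, had 89.4, 93.2 and 66.0 CPM after CO8-DA, against 229, 267 and 288 CPM in the control. All control libraries were more than 2 times any CO8-DA library, and the mean was 31.7% of the control. A flavonoid hydroxylase (Psat5g201640), of a type that adds hydroxyl groups to the flavonoid skeleton, had 43.8, 35.9 and 38.9 CPM after CO8-DA, against 133, 185 and 171 CPM in the control. The libraries of each group lay close together at this locus, and the mean was 24.2% of the control. Caffeic acid O-methyltransferase (Psat3g198520), an enzyme family that methylates precursors of lignin and other phenolics, had 60.1, 40.2 and 34.4 CPM after CO8-DA, against 185, 234 and 69.7 CPM in the control. Control replicate 3 lay far below the other control libraries and only 1.16 times above CO8-DA replicate 1, while the mean was 27.6% of the control.

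The remaining loci of secondary metabolism were at 32.0% to 46.5% of the control. An anthranilate N-methyltransferase (Psat0s1479g0040), an enzyme described from alkaloid synthesis in rue, averaged 34.7 ± 4.04 CPM after CO8-DA and 109 ± 45.7 CPM in the control. A monoterpene synthase (Psat6g136040), of a family that forms volatile terpenes from geranyl diphosphate, had 33.4, 27.8 and 29.4 CPM after CO8-DA, against 86.3, 61.1 and 60.2 CPM in the control. Replicate 1 was the highest in both groups, and the mean was 43.6% of the control. A FAD-binding berberine family oxidoreductase (Psat6g112320) averaged 22.5 ± 5.58 CPM after CO8-DA and 60.8 ± 10.5 CPM in the control. A pair of cytochromes P450, enzymes that oxidize many small molecules, are among the members. Psat1g053640 averaged 11.3 ± 2.65 CPM after CO8-DA and 30.8 ± 9.37 CPM in the control, and Psat2g009400 averaged 14.2 ± 0.934 CPM after CO8-DA and 30.5 ± 0.577 CPM in the control. The locus with a benzoyltransferase-like description (Psat7g079960), of an acyltransferase family, averaged 12.5 ± 2.80 CPM after CO8-DA and 28.7 ± 6.39 CPM in the control.

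Loci with a PR-10-like description or domain were among those with the lowest ratios. PR-10 proteins are small intracellular proteins with the fold of the birch allergen Bet v 1, which has a cavity for hydrophobic ligands, and DRRG49 was first known as a pea transcript that accumulates in pods challenged with Fusarium. The locus described as disease resistance response protein DRRG49-C (Psat1g157160) had 29.6, 21.8 and 13.1 CPM after CO8-DA, against 121, 271 and 159 CPM in the control. Its mean was 11.7% of the control, and its lowest control library was 4.07 times its highest CO8-DA library. The locus described as polyketide cyclase/dehydrase and lipid transporter (Psat6g042760), a description used for proteins of the Bet v 1 fold, had 5.48, 2.58 and 3.27 CPM after CO8-DA, against 37.8, 79.2 and 53.2 CPM in the control. This is 6.65% of the control, and the factor of 6.91 between the nearest libraries of the groups was the largest of all members. An uncharacterized locus (Psat6g042680), to which the study's annotation gives the same Bet v 1 domain and which lies 2 listed loci away from Psat6g042760, had 1.47, 0.644 and 0.665 CPM after CO8-DA, against 8.42, 27.3 and 26.0 CPM in the control. With 4.50% of the control it had the lowest ratio of the 46, although its control replicate 1 reached less than 10 CPM and its CO8-DA libraries held only 19, 10 and 13 estimated counts.

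The stress-labelled loci that are not of this fold were at 38.1% to 48.4% of the control. A dormancy-associated protein (Psat1g203680), of a family with an auxin-repressed domain whose pea member marks dormant axillary buds, had 154, 220 and 151 CPM after CO8-DA, against 598, 288 and 492 CPM in the control. The control libraries differed by more than 2-fold, with replicate 2 the lowest, and the mean was 38.1% of the control. A dehydration-responsive RD22-like protein (Psat7g141640) averaged 23.1 ± 6.46 CPM after CO8-DA and 49.6 ± 6.95 CPM in the control. An h-type thioredoxin (Psat3g052760), a protein that reduces disulfides, averaged 22.8 ± 4.78 CPM after CO8-DA and 47.0 ± 11.8 CPM in the control. A BAG family chaperone regulator (Psat1g191720), of a family that binds Hsp70 chaperones, averaged 13.7 ± 1.88 CPM after CO8-DA and 32.2 ± 11.7 CPM in the control. The 7 loci of this role summed to 261 ± 38.9 CPM after CO8-DA and 849 ± 22.6 CPM in the control, 30.7% of the control.

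The proteases and peroxidases among the members were near the upper limit of the ratio. For peroxidases this holds only for the loci kept, since those set aside met the same thresholds at 6.86% to 45.3% of the control. A serine carboxypeptidase (Psat7g191360) had 164, 189 and 159 CPM after CO8-DA, against 245, 421 and 379 CPM in the control, a mean of 49.0% of the control. A subtilisin-like serine protease (Psat5g011280), of a family that is mostly secreted into the cell wall, had 78.1, 56.8 and 43.2 CPM after CO8-DA, against 164, 99.0 and 120 CPM in the control, a mean of 46.5%. In both proteases the nearest libraries of the groups were less than 1.5-fold apart. An aspartyl protease (Psat2g045400) averaged 9.38 ± 2.90 CPM after CO8-DA and 21.7 ± 9.80 CPM in the control. Class III peroxidases are secreted enzymes that oxidize phenolics in the wall, and Psat7g198640 had 219, 185 and 226 CPM after CO8-DA, against 626, 390 and 406 CPM in the control. Control replicate 1 stood above the other control libraries at this peroxidase, whose mean was 44.4% of the control. The other peroxidase, Psat6g112040, averaged 16.4 ± 1.76 CPM after CO8-DA and 32.9 ± 10.2 CPM in the control, and it lies 7 listed loci from the berberine family member Psat6g112320.

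Among the regulators, a locus described as general regulatory factor 2 (Psat5g238280), a 14-3-3 protein that binds phosphorylated partners, had 92.0, 92.0 and 88.3 CPM after CO8-DA, against 158, 226 and 180 CPM in the control. Its CO8-DA libraries hardly differed, and the mean was 48.3% of the control. An LRR receptor-like kinase (Psat4g196680), of a class of membrane receptors, had 6.01, 5.70 and 6.41 CPM after CO8-DA, against 30.0, 10.6 and 52.8 CPM in the control. The control libraries of this kinase were spread by about 5-fold while the treated ones were nearly equal, and the mean was 19.4% of the control. Without control replicate 3 its edgeR log2 fold change was -1.74 in place of -2.39. A myb transcription factor (Psat0s128g0120) averaged 30.1 ± 2.20 CPM after CO8-DA and 62.7 ± 20.9 CPM in the control, and without control replicate 3 its edgeR log2 fold change was -0.75. A bZIP transcription factor (Psat3g194240) averaged 14.7 ± 8.05 CPM after CO8-DA and 30.4 ± 8.93 CPM in the control, with only a factor of 1.05 between the nearest libraries and an edgeR log2 fold change of -1.07, which was -1.62 without CO8-DA replicate 1. A programmed cell death protein 4-like locus (Psat1g048160), whose relative in animals restrains translation initiation, averaged 18.6 ± 4.03 CPM after CO8-DA and 38.9 ± 14.5 CPM in the control.

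The lipid-related loci were an SFH3-like phosphatidylinositol/phosphatidylcholine transfer protein and a locus with a lipase domain. The transfer protein (Psat5g005920) had 12.7, 8.18 and 6.91 CPM after CO8-DA, against 27.3, 49.2 and 38.4 CPM in the control, a mean of 24.1%. The lipase domain locus (Psat2g185880) averaged 8.60 ± 1.03 CPM after CO8-DA and 26.1 ± 4.06 CPM in the control. Loci without a common role include an epoxide hydrolase 2-like locus (Psat5g271080), of an enzyme family that opens epoxides to diols. It had 85.0, 92.0 and 87.6 CPM after CO8-DA, against 236, 163 and 164 CPM in the control, with replicate 1 the highest control library and a mean of 47.0%. GTP cyclohydrolase I (Psat0s4107g0040), the entry enzyme of folate synthesis, averaged 8.02 ± 2.31 CPM after CO8-DA and 23.5 ± 15.4 CPM in the control. Control replicate 1 stood apart with 41.3 CPM, and without it the edgeR log2 fold change was -0.90 in place of -1.55. A locus described as specific tissue protein (Psat0s1116g0120) averaged 25.1 ± 2.09 CPM after CO8-DA and 84.0 ± 26.3 CPM in the control.

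Several loci of unclear function were among those with the lowest ratios. A pollen Ole e I family locus (Psat6g164120), of a family of secreted proteins, had 18.7, 7.60 and 4.40 CPM after CO8-DA, against 50.3, 138 and 57.1 CPM in the control. A locus with the Root_cap domain (Psat5g246320) had 11.8, 12.4 and 6.93 CPM after CO8-DA, against 48.5, 106 and 55.6 CPM in the control. These means were 12.5% and 14.8% of the control, and in both loci control replicate 2 was nearly 2 times the other control libraries or more. The edgeR log2 fold change of the Ole e I locus was -3.04 with all libraries, -3.81 without CO8-DA replicate 1 and -2.44 without control replicate 2. The undescribed Psat7g177120 had 5.05, 1.01 and 0.154 CPM after CO8-DA, against 15.9, 37.3 and 16.9 CPM in the control. At the undescribed Psat4g143520 the values were 5.17, 0.322 and 0.358 CPM after CO8-DA, against 12.3, 37.1 and 15.0 CPM in the control. In both undescribed loci CO8-DA replicate 1 stood well above the other treated libraries, which held as few as 3 estimated counts at Psat7g177120 and 5 at Psat4g143520. Without CO8-DA replicate 1 the edgeR log2 fold changes were -5.40 for Psat7g177120 and -5.96 for Psat4g143520, in place of -3.61 and -3.58 with all libraries. They were -2.99 for Psat7g177120 without CO8-DA replicate 3 and -2.92 for Psat4g143520 without control replicate 2. The hypothetical protein locus Psat1g095280 had 7.49, 10.7 and 3.79 CPM after CO8-DA, against 25.8, 21.0 and 37.8 CPM in the control. Another hypothetical protein locus, Psat4g123760, averaged 9.30 ± 1.99 CPM after CO8-DA and 21.7 ± 1.71 CPM in the control.

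The members varied more between replicates than most abundant loci. Their median coefficient of variation was 22.0% within CO8-DA and 29.9% within the control, against 9.08% within CO8-DA and 9.88% within the control over all 8772 abundant loci. For the 66 abundant loci that at least doubled, the medians were 13.7% within CO8-DA and 34.4% within the control. The spreads come from the same CPM values that the thresholds used, and how far the choice of loci itself gives them was not tested. In 8 members the CO8-DA libraries, and in 18 members the control libraries, were more than 2-fold apart. The library with the highest value was not the same throughout. Among CO8-DA libraries it was replicate 1 in 21, replicate 2 in 14 and replicate 3 in 11 members, and among control libraries it was replicate 1 in 10, replicate 2 in 18 and replicate 3 in 18 members. The 7 members with the lowest ratios, up to 14.8% of the control, were alike in this respect. They are the DRRG49-C locus, Psat6g042760, Psat6g042680, the Ole e I and Root_cap loci and both undescribed loci, and this pattern was noticed after their values were seen. In all 7 the highest control library was replicate 2 and the lowest was replicate 1, and in 6 of the 7 the highest CO8-DA library was replicate 1. Their control libraries were 2.09- to 3.24-fold apart, and the nearest libraries of the groups 2.38- to 6.91-fold.

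**Figure D3:**
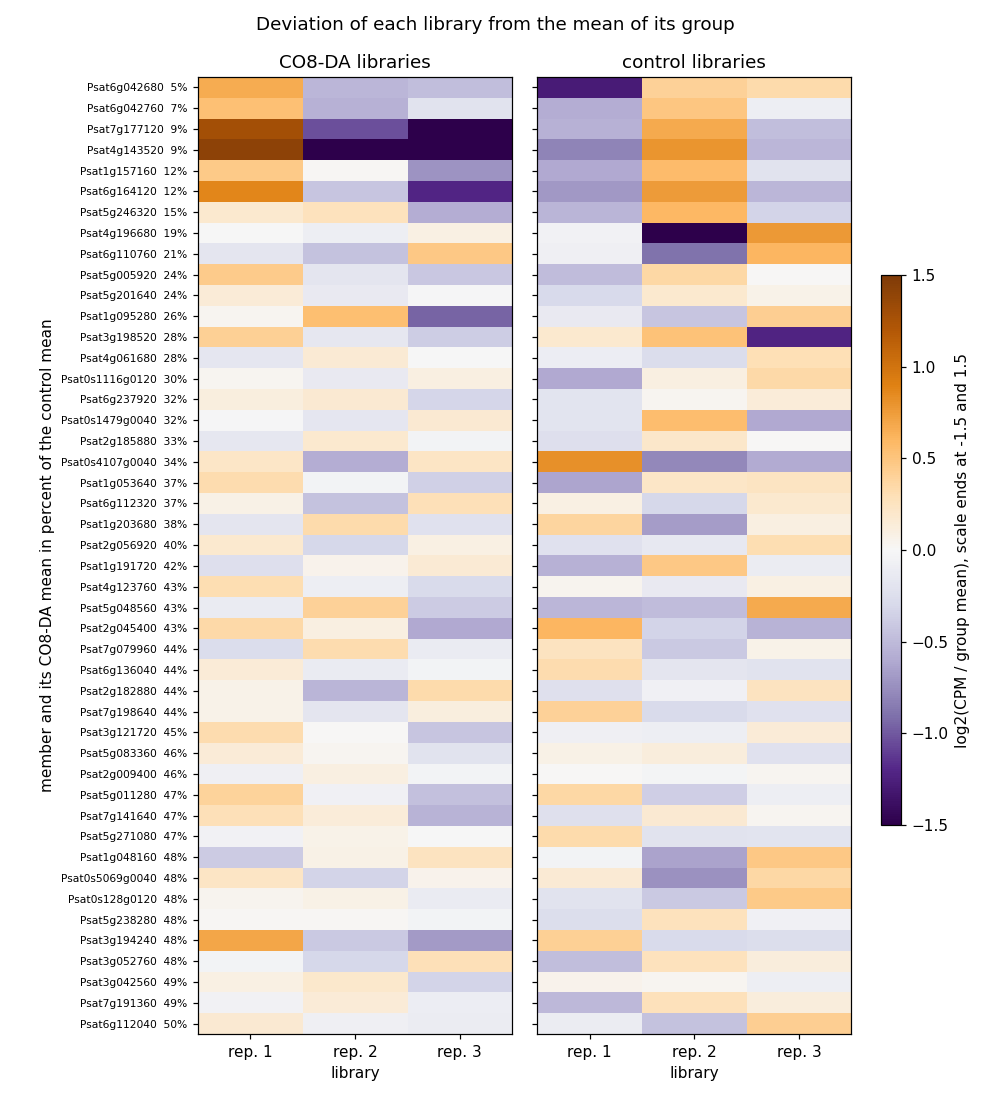
Deviation of each library from the mean of its own group, as log2 of CPM over the group mean, for the 46 members sorted from the lowest to the highest ratio, with the CO8-DA libraries on the left and the control libraries on the right. The 7 uppermost members share the highest value in control replicate 2 and the lowest in control replicate 1, whereas members further down have their highest control library in any of the 3.

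The members were spread over the genome. The identifiers name the chromosome (Psat3g is chromosome 3) or, as Psat0s, a scaffold without a place, and by them 6, 5, 5, 4, 8, 8 and 5 members were on chromosomes 1 to 7 and 5 on scaffolds. The shares differed by less than 5 percentage points from those of all abundant loci, as for chromosome 7 with 10.9% of the members and 15.5% of the abundant loci. Estimated counts that were not whole, which show that reads were divided with another locus, occurred in 13 members or 28.3%, against 26.6% of the abundant loci.

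Loci next to the members were tested where the thresholds had not chosen them. A neighbour that met the thresholds is itself a member or set aside, as with the nearby Psat6g042760 and Psat6g042680, so the neighbours lack such loci by construction. Up to 5 listed loci were taken on each side of a member, in the order of the numbers in the identifiers, which gave 407 loci around 45 members, 192 of them tested. Of these, edgeR called 2 lower (1.04%, against 0.268% of the 21237 tested loci that do not meet the thresholds) and 7 higher (3.65%, against 2.63% of all tested loci). Their median log2 fold change was -0.02, against -0.01 for all tested loci. Without CO8-DA replicate 2, CO8-DA replicate 3 or control replicate 3 only 1 neighbour was called lower, and without control replicate 1 there were 4 called lower and 12 called higher. Whether calls changed alike over all tested loci in these fits was not examined. Both neighbours called lower lay directly beside a member. Descriptions exist only for loci of the study's list of changed genes, 10 of the 192, so a neighbour of like description could be found only among loci chosen as changed on these samples. Of the 7 called higher, 3 had the same kind of description as the member they lay near, and the other 4 had log2 fold changes between 1.20 and 4.48.

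**Figure D4:**
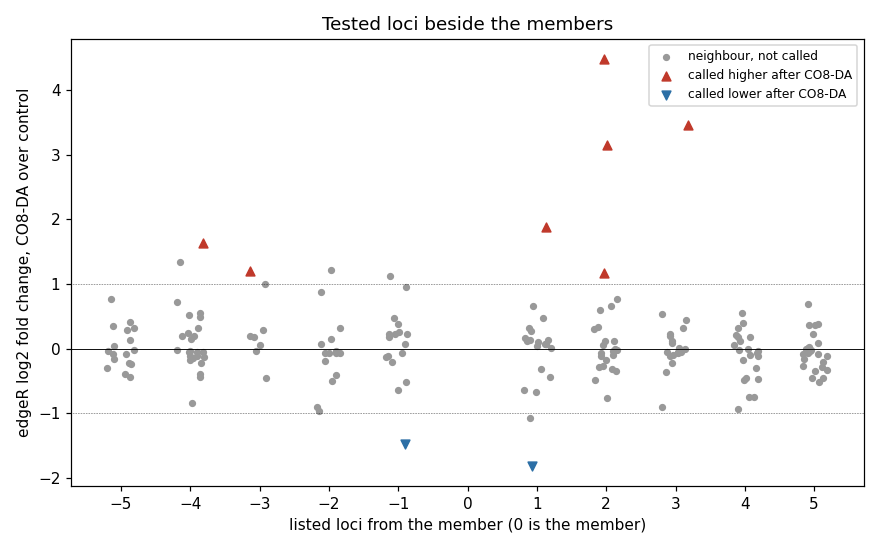
edgeR log2 fold change, CO8-DA over control, of the 192 tested loci within 5 listed loci of a member, by their place in the order of identifiers. Most lie between the dotted lines at -1 and 1, with 7 called higher (upward triangles) and 2 called lower (downward triangles), the 2 directly beside the member.

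Within that limit, some members had a nearby locus of like description that was higher after CO8-DA. Chalcone isomerase 1 (Psat6g238360), 7 listed loci from the member chalcone isomerase 2, had 218, 155 and 243 CPM after CO8-DA, against 118, 80.3 and 88.7 CPM in the control. It was higher in each CO8-DA library, with a log2 fold change of 1.09 ± 0.20 (SE) and an edgeR adjusted p of 0.0244. The call did not hold when CO8-DA replicate 1 or 3 or control replicate 2 or 3 was left out, with adjusted p up to 0.106. Summed over both isomerases the level was 288 ± 34.6 CPM after CO8-DA and 357 ± 16.9 CPM in the control, 80.8% of the control, and all counts of the pair were whole. A disease-resistance response locus (Psat1g157000), 4 listed loci from the member DRRG49-C, had 194, 124 and 129 CPM after CO8-DA, against 56.6, 38.2 and 47.9 CPM in the control. Its log2 fold change was 1.63 ± 0.22 (SE) with an edgeR adjusted p of 0.00608, and it was called in all 6 fits that leave out 1 library. The sum of this pair was 171 ± 46.3 CPM after CO8-DA and 231 ± 69.6 CPM in the control, with overlapping libraries, and the member had counts that were not whole in 5 libraries. The other tested loci within 5 listed loci of this member have no description and were not called. Psat1g157200 averaged 81.5 CPM after CO8-DA and 57.7 CPM in the control, Psat1g157240 511 and 544 CPM, and Psat1g157360 529 and 514 CPM. Their counts were not whole in any of the 6 libraries.

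The heavy metal P-type ATPase next to the member of that description (Psat2g182920) had 30.3, 30.0 and 51.0 CPM after CO8-DA, against 12.7, 6.09 and 11.0 CPM in the control. Its log2 fold change was 1.88 ± 0.31 (SE) with an edgeR adjusted p of 0.0148, which became 0.0527 without control replicate 3. All counts of both ATPases were whole, and their sum was 78.9 ± 22.9 CPM after CO8-DA and 105 ± 16.6 CPM in the control. A second caffeic acid O-methyltransferase (Psat3g198600), 2 listed loci from the member, had 38.5, 24.1 and 31.7 CPM after CO8-DA, against 15.3, 14.3 and 11.9 CPM in the control. The log2 fold change was 1.17 ± 0.19 (SE) with an edgeR adjusted p of 0.0152, and it missed the adjusted p when CO8-DA replicate 3 or control replicate 3 was left out, where p reached 0.0680. Without CO8-DA replicate 1 the log2 fold change was 0.99, under the threshold of 1. Counts of both loci were not whole in any of the 6 libraries, so reads of each were divided with some other locus, and whether they share reads with each other was not tested. The sum of the pair was 76.3 ± 19.3 CPM after CO8-DA and 177 ± 85.8 CPM in the control, 43.2% of the control.

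**Figure D5:**
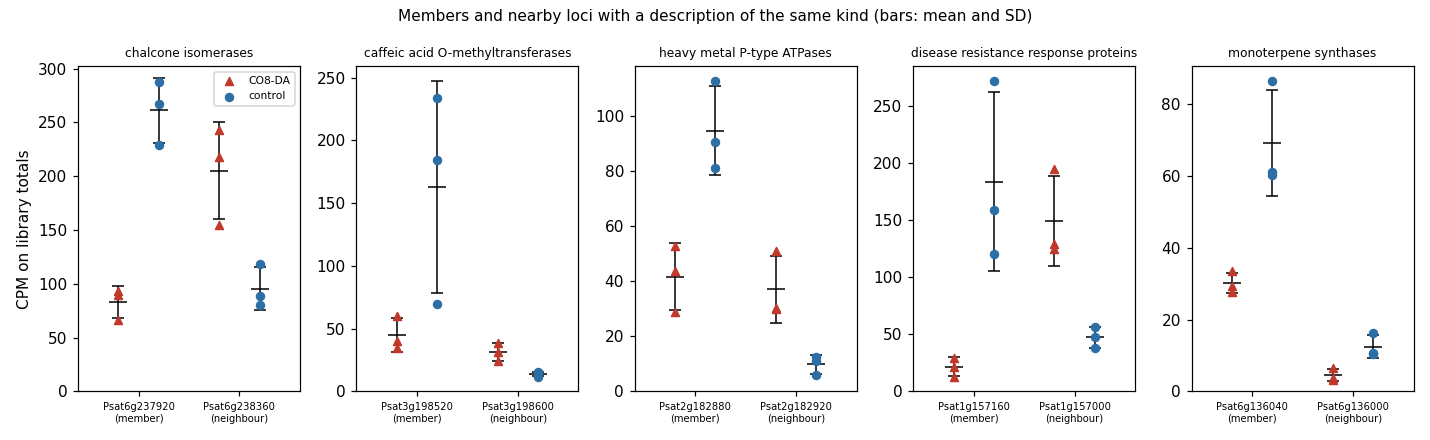
CPM in the 3 CO8-DA libraries (triangles) and the 3 control libraries (circles), with mean and SD, for 5 members and a nearby locus with a description of the same kind. In the first 4 panels the neighbour is higher after CO8-DA while the member is lower, as for the ATPase neighbour with 30.0 to 51.0 CPM after CO8-DA and 6.09 to 12.7 CPM in the control, and in the monoterpene synthase panel both are lower.

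The neighbours within 5 listed loci that were called lower were a locus beside a monoterpene synthase and one beside the nitrate transporter component. A monoterpene synthase (Psat6g136000) beside the member of that description had 6.56, 3.80 and 3.28 CPM after CO8-DA, against 16.2, 10.8 and 10.4 CPM in the control. Its log2 fold change was -1.48 ± 0.30 (SE) with an edgeR adjusted p of 0.0332, and it missed the threshold when any of CO8-DA replicates 2 and 3 and control replicates 2 and 3 was left out, with adjusted p up to 0.142. The locus beside the nitrate transporter component (Psat4g061720), described as a manganese-dependent diphosphatase-like protein, had 6.43, 5.15 and 3.48 CPM after CO8-DA, against 15.2, 15.8 and 20.5 CPM in the control. Its log2 fold change was -1.81 ± 0.25 (SE) with an edgeR adjusted p of 0.00716, and it was called in all 6 fits that leave out 1 library. This locus and the transporter component had counts that were not whole in all 6 libraries, and whether they share reads with each other was not tested.

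Loci whose descriptions matched set keywords, not necessarily in a member's pathway, were counted in the study's list of changed genes. That list was chosen on these samples, so its directions are no independent evidence. It leans to higher loci, since of its 796 tested loci other than members and those set aside edgeR called 70.1% higher and 6.78% lower. The counts for each set of keywords are to be read against these shares. Of 19 loci whose description names a phenylpropanoid or flavonoid enzyme or a dirigent-type protein, 3 are members. Of the other 16, 15 were tested by edgeR, which called 12 higher, with a median log2 fold change of 1.71, and 0 lower. At an unadjusted p under 0.05 there were 14 higher and 1 lower, and DESeq2 called 14 higher and 2 lower. Nitrogen and amino acid descriptions were found at 15 loci with 4 members, and edgeR called 6 of the other 11 higher and 2 lower. At an unadjusted p under 0.05 and by DESeq2 there were 7 higher and 4 lower. Most of those called higher were described as amino acid transporters, and so was 1 of the 2 called lower (Psat4g189480, log2 fold change -1.20, edgeR adjusted p 0.0242). The high affinity nitrate transporter 2.4 loci had log2 fold changes of -1.57 (Psat7g149120, edgeR adjusted p 0.0165) and -1.37 (Psat4g155600, edgeR adjusted p 0.0607). A nitrate reductase locus (Psat5g134440) had 2.68 (edgeR adjusted p 0.0699), at low means of 0.998 CPM after CO8-DA and 0.154 CPM in the control. Descriptions with a protease keyword were found at 12 loci with 3 members. Of the others, 1 is a cysteine protease inhibitor, not a protease, and another is described as gamma-glutamyltranspeptidase. Papain family cysteine proteases, a class not found among the members, are also among the others. Over this list edgeR called 5 of the other 9 higher and 0 lower, with 6 higher and 2 lower at an unadjusted p under 0.05 and 7 higher and 2 lower by DESeq2.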

How the data were processed

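Reads were trimmed (Trimmomatic 0.39) and aligned to pea genome v1a (Bowtie2 2.4.4) by the authors, who deposited expected counts per gene from RSEM 1.3.1, which divides a read that fits several loci. These estimated counts are not normalized. CPM were computed on the column totals of the unrounded counts. Counts were then rounded and tested with edgeR 4.0.16 in R 4.3.3 (TMM, filterByExpr, quasi-likelihood test, Benjamini-Hochberg adjustment over all tested loci, two-sided), and DESeq2 1.42.0 was an alternative. The standard error is the log2 fold change divided by the square root of F. The study's methods call the replicates independent biological repeats of several plants each. A count was read as whole within 0.005. Values per library are given for the 12 members with the highest control level, the 12 with the lowest ratio and those with a nearby locus (up to 12 listed loci away) of like description, and means for the others. Some loci named as just outside a threshold follow from the ratio, level or overlap, and library notes on other members were chosen after their values were seen. The members, roles and lists were chosen with earlier results of these data known. The named loci set aside and the study's quantitative PCR were not analysed further here. No sequences or coordinates are given, since the reference tables used here hold no identifiers of this annotation. Python 3.11.15 with pandas 2.3.3 and matplotlib 3.10.9 was used for CPM and plots.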

Additional observations from a re-analysis of the deposited data

How the results depend on the processing

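The summed level of the members had a log2 ratio of -1.41, which stayed between -1.47 and -1.36 with each library left out and was -1.42 on the TMM scale. The number of loci chosen depended on the thresholds, with 76 at a control minimum of 10 CPM, 24 at 50 CPM, 22 at a ratio of at most 0.4 and 122 at a ratio of at most 0.6, in place of 46. Leaving out 1 library gave 47 to 70 loci, 70 of them without control replicate 2, and between 37 and 45 of the 46 members were among them. The edgeR calls numbered 20 to 37 members with 1 library left out, 1 to 4 neighbours lower and 5 to 12 neighbours higher. The shares over all tested loci in these fits are not given. By adjusted p alone 5 neighbours were lower, among loci with whole counts 1 was lower, and with 1 locus on each side 1 was higher. No alternative turned the direction of a member or of a neighbour whose log2 fold change is given, and this was not examined for the other loci just outside a threshold. Deviations from the group mean correlated at 0.226, 0.0449 and 0.151 between CO8-DA and control libraries of the same replicate number. Between libraries of unlike number the correlations lay between -0.201 and 0.0869. Deviations cancel within a group, so a higher correlation with 1 library lowers those with the others. The values for like and unlike numbers are therefore not independent of each other. The titles number the libraries but state no pairing, and whether the numbers mark a shared batch was not tested. The column names of the count table number them otherwise, and only replicate 2 has the same column number in both groups. By the column names CO8-DA replicate 1 would go with control replicate 3, where the correlation was -0.119. A block by the column numbers was not fitted. With the title number as a block edgeR called 39 members, 2 neighbours lower and 7 higher. Single members moved in either direction. At Psat1g203680 the edgeR adjusted p was 0.0254 without the block and 0.0539 with it, and at Psat2g045400 it was 0.0926 without and 0.0130 with it. With 12315774 counts in the smallest library, 20 CPM is far above counting noise, while the CO8-DA values of Psat7g177120, Psat4g143520 and Psat6g042680 rest on few counts, down to 3, 5 and 10 in a library.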
